A study of Homo sapiens with 2 samples.

Results

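Streak-marker barcodes are the few barcodes, in cultures of human embryonic stem cells, that carried several transcripts of genes that mark the primitive streak. A barcode is the sequence tag given to the RNA captured by 1 bead, ideally the RNA of 1 cell, and a unique molecular identifier (UMI) counts 1 captured transcript. Barcodes were taken with at least 250 UMIs, at most 20% of them from mitochondrially encoded genes, and at least 2 UMIs summed over TBXT, MIXL1, EOMES, GSC, MESP1, MESP2 and LHX1. The rule found 86 of 112365 barcodes that passed the first 2 conditions. Of these, 72 came from the 59649 barcodes of the wild-type (WT) library and 14 from the 52716 barcodes of the knockout (KO) library. The UMIs of the 7 genes chose the barcodes, so their levels are given as a description only.

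Both libraries were made from routine cultures of H1 (WA01), a long-used line of human embryonic stem cells. One library was WT, and the other came from cells labelled as a homozygous KO of ZNF263, a zinc finger transcription factor. Each genotype had 1 library, both libraries were made by an adapted Microwell-seq method that captures polyadenylated RNA, and no differentiation treatment is named in the labels. The labels do not say whether the KO line is 1 clone, and the KO sample's title and the names of its files carry different line numbers, so which KO line was sequenced is uncertain. The group rests on the genotype label, and genotype, line and library cannot be told apart.

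In the embryo the primitive streak is where epiblast cells leave the epithelium and become mesoderm and endoderm. NODAL, a ligand of the TGF-beta family, and WNT ligands induce it. NODAL acts with its co-receptor TDGF1 through activin receptors, SMAD2, SMAD3 and the DNA-binding partner FOXH1, and it induces its own inhibitors LEFTY1, LEFTY2 and CER1. TBXT and EOMES are T-box transcription factors of the streak, MIXL1 and GSC are homeobox factors of its mesendoderm and anterior end, MESP1 and MESP2 are basic helix-loop-helix factors of early mesoderm, and LHX1 is a LIM homeobox factor of the anterior streak and node.

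MIXL1 and EOMES supplied 168 of the 181 UMIs that defined the WT barcodes, and CER1 stood highest among genes outside the rule with at least 10 UMIs in them. The 250 bases before the annotated start of each are therefore shown, from the RefSeq promoter table of GRCh38.p14, 5′ to 3′ on the strand of the gene. MIXL1 is read on the plus strand at chr1:226223414-226223663, just before the gene. EOMES is read on the minus strand at chr3:27722324-27722573, inside the annotated span of the gene (chr3:27715953-27722713). CER1 is read on the minus strand at chr9:14722734-14722983, just before the gene. Capitals mark matches to the motifs searched, and EOMES has none.
MIXL1: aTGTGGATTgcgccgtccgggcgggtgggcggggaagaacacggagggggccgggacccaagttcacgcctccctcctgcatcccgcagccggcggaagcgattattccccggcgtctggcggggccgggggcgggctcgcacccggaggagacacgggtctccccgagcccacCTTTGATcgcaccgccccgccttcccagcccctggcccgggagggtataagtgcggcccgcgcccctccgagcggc
EOMES: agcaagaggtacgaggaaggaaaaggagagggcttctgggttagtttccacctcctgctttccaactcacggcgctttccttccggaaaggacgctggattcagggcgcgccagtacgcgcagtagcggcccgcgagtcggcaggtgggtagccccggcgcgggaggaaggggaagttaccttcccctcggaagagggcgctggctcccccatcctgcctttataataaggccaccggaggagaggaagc
CER1: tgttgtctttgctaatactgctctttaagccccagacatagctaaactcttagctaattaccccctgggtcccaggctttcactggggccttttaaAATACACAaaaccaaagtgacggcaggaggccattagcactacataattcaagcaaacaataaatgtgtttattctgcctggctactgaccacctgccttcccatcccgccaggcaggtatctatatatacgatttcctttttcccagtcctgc

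The motifs were ATCAAAG (TCF/LEF, the DNA-binding partners of beta-catenin in WNT signalling), AATCCACA and AATACACA (FOXH1), GTCTAGAC (SMAD palindrome) and TCACACCT (T-box), on both strands, with no motif overlapping another. The MIXL1 window held a TCF/LEF match, CTTTGAT, beginning 76 bases before the start, and a FOXH1 match, TGTGGATT, beginning 249 bases before it. The CER1 window held 1 FOXH1 match, AATACACA, beginning 154 bases before the start. Among 35116 promoter windows of the same length, 2.26% held the TCF/LEF motif, 1.37% a FOXH1 motif, 0.182% the SMAD palindrome and 0.786% the T-box motif. Of the 7 marker genes, 5 were in the promoter table and 2 of them held any motif: MIXL1, and MESP2 with a FOXH1 match. A match in these letters describes the window and is no evidence of binding.

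In all, 60578040 UMIs fell on 842407 barcodes in WT and 54559376 UMIs on 841049 barcodes in KO. Barcodes are built from 3 segments with 96 forms each, and 834126 barcodes occurred in both libraries. Among barcodes that passed the depth and mitochondrial limits 5187 were shared, and no streak-marker barcode of one library was a streak-marker barcode of the other, although 5 WT members were kept barcodes in KO and 2 KO members in WT. ZNF263 itself, the targeted gene, stood at 16.0 CPM (UMIs scaled to a common library total) in WT (95% interval 14.6 to 17.6) and 8.42 CPM in KO (7.31 to 9.64) over the kept barcodes, and the streak-marker barcodes held 1 UMI of it in WT and 0 in KO. All intervals in the text are exact Poisson or Clopper-Pearson intervals at 95% and cover counting error only. Neither genotype has a replicate library, and no p-value is given.

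More barcodes held 2 or more marker UMIs than independent scattering of those UMIs over barcodes would give. In WT, 72 barcodes (0.121%, interval 0.0945 to 0.152) were seen against 16.5 expected from each barcode's UMI number and the pooled share of the 7 genes, a ratio of 4.36 (3.41 to 5.49). In KO, 14 barcodes (0.0266%, 0.0145 to 0.0446) were seen against 1.14 expected, a ratio of 12.3 (6.72 to 20.6). The excess grew with the number of marker UMIs. Just outside the rule, 985 WT barcodes held exactly 1 marker UMI against 1133 expected and 248 KO barcodes against 286 expected. Just inside it, 51 WT barcodes held exactly 2 against 16.2 expected, and 10 KO barcodes against 1.13. At 3 or more, WT had 21 barcodes against 0.311 expected and KO had 4 against 0.00579. The highest number was 6 in WT and 10 in KO.

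Most marker UMIs nevertheless lay outside these barcodes. The WT barcodes held 181 of 1166 marker UMIs in the library's kept barcodes, or 15.5%, and the KO barcodes 40 of 288, or 13.9%. The 7 genes together stood at 41.1 CPM in kept WT barcodes and at 40.3 CPM in WT barcodes of 10 to 99 UMIs, which are too shallow to be kept. In KO the values were 11.7 and 11.1 CPM. The marker genes were thus about as frequent in the shallow barcodes as in the kept ones, and what part RNA free in the suspension has in these UMIs was not tested.

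**Figure D1:**
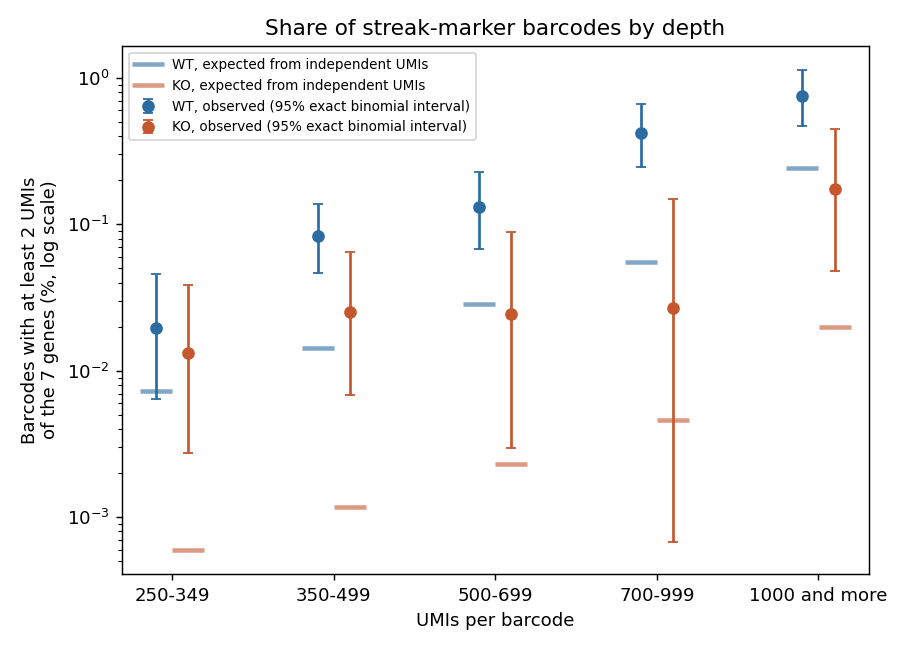
Share of barcodes with at least 2 UMIs of the 7 marker genes (y axis, percent, log scale) by UMIs per barcode (x axis), WT in blue and KO in red. Points are observed shares with 95% exact binomial intervals and horizontal marks are the shares expected from independent UMIs. Observed points lie above the marks in every depth class, from 0.0197% in WT barcodes of 250 to 349 UMIs to 0.750% in those of 1000 or more.

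Depth set how many barcodes qualified, but more members than expected were seen in each depth class. WT barcodes of 250 to 349 UMIs gave 5 members against 1.85 expected, those of 350 to 499 gave 15 against 2.57, those of 500 to 699 gave 12 against 2.61, those of 700 to 999 gave 18 against 2.40, and those of 1000 or more gave 22 against 7.10. In the shallowest WT class the interval of the share (0.00641 to 0.0461%) included the expected 0.00730%. The KO classes held 3, 4, 2, 1 and 4 members in the same order, where 0.456 or fewer were expected in each class. In the KO class of 700 to 999 UMIs the interval of the share (0.000676 to 0.149%) included the expected 0.00459%. Members had a median of 753.5 UMIs in WT (278 to 2649) against 377 in all kept WT barcodes. The rule itself favours deep barcodes: with independent UMIs the median would have been 830. KO members had a median of 541 UMIs (250 to 4089) against 374 in all kept KO barcodes, and with independent UMIs the median would have been 783. The median mitochondrial share was 4.16% in WT members and 4.47% in kept WT barcodes, and 4.05% and 5.11% in KO.

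Repeated UMIs of 1 gene in 1 barcode were common for other genes too. Over 6062 WT genes, the number of barcodes with at least 2 UMIs was a median of 2.05 times the number expected from independent UMIs, and 10% of genes lay above 3.99. MIXL1 had 41 such barcodes against 4.55 expected, a ratio of 9.02, and 13 of the 6062 genes were at or above it, MIXL1 included. EOMES had 14 against 2.19, a ratio of 6.40, with 97 genes at or above it. Counts of barcodes with different marker genes do not rest on such repeats. Barcodes with at least 2 different marker genes numbered 37 in WT against 9.92 expected (3.73, interval 2.63 to 5.14) and 7 in KO against 0.678 (10.3, 4.15 to 21.3).

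The members were largely MIXL1 and EOMES barcodes. MIXL1 gave 115 UMIs in 64 of the 72 WT barcodes and 22 UMIs in 12 of the 14 KO barcodes. EOMES gave 53 UMIs in 35 WT barcodes and 13 UMIs in 8 KO barcodes. TBXT, the classic marker of the streak, gave only 6 UMIs in 6 WT barcodes and 1 UMI in KO, and GSC gave 5 UMIs in WT and 4 in KO. MESP1 and LHX1 were each seen with 1 UMI in WT and 0 in KO, and MESP2 with 0 in both. By gene, 28 WT barcodes held MIXL1 alone, 25 held MIXL1 with EOMES, 7 held EOMES alone, and the remaining combinations each had 4 or fewer barcodes. The name streak-marker barcode is used here in place of a cell type, because 92.8% of the defining UMIs in WT and 87.5% in KO came from MIXL1 and EOMES.

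**Figure D2:**
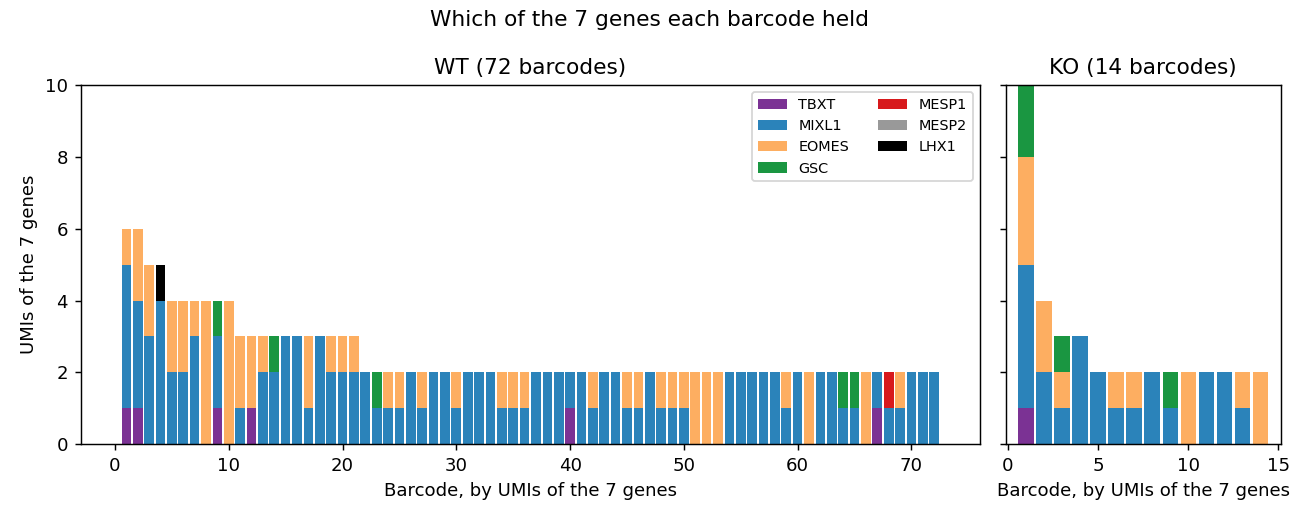
UMIs of each marker gene (y axis, stacked by colour) in every streak-marker barcode (x axis, ordered by the total over the 7 genes), with the 72 WT barcodes at left and the 14 KO barcodes at right. MIXL1 and EOMES fill most bars, and 1 KO barcode reaches 10 UMIs from TBXT, MIXL1, EOMES and GSC.

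Each marker was then read in barcodes chosen by at least 2 UMIs of the other 6, where its own UMIs had no part in the choice. MIXL1 gave 18 UMIs in 8 of 16 such WT barcodes against 0.251 expected from other barcodes of equal depth, a ratio of 71.8 (42.5 to 113). EOMES gave 14 UMIs in 10 of 47 WT barcodes against 0.570 expected, a ratio of 24.6 (13.4 to 41.2). TBXT gave 4 UMIs in 70 WT barcodes against 0.107 expected (37.5, 10.2 to 96.1), and GSC gave 2 in 69 against 0.0487 (41.1, 4.97 to 148). In KO, MIXL1 gave 7 UMIs in 5 barcodes against 0.0333 expected and EOMES gave 6 in 9 barcodes against 0.0312. MESP1 and MESP2 gave 0 UMIs in both libraries when left out, and LHX1 gave 1 in WT and 0 in KO, where 0.0462 or fewer were expected. MIXL1 and EOMES thus met other markers in the same barcodes more often than depth gives in both libraries, and TBXT and GSC did so on 4 UMIs or fewer.

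MIXL1 alone picked out EOMES. The 555 WT barcodes with any MIXL1 UMI held 33 UMIs of EOMES in 27 barcodes against 4.34 expected at equal depth, a ratio of 7.60 (5.23 to 10.7). Among 9787 genes with at least 2 expected UMIs, EOMES had the highest ratio, the next was NODAL at 6.14, and the median gene stood at 0.969. In KO, 138 barcodes with MIXL1 held 9 UMIs of EOMES against 0.295 expected (30.5, 14.0 to 58.0).

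Genes that the rule did not use were compared with the remaining barcodes of the same library in the same depth class. Across all 2114 WT genes with at least 5 expected UMIs the median ratio of observed to expected was 0.961, with 7.19% of genes at least 1.5-fold higher and 17.4% at least 1.5-fold lower. In KO 447 genes reached 5 expected UMIs, with 5.15% at least 1.5-fold higher and 17.7% lower. The members held 65843 UMIs in WT and 14826 in KO, and these shares are the background for the counts of genes that follow. The 2 deepest KO barcodes held 50.3% of the KO members' UMIs.

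Other streak genes were higher in sum in the streak-marker barcodes, in WT mainly through a few genes. The list of 23 streak genes outside the rule, of which 22 were in the WT table, gave 30 UMIs in WT members against 5.77 expected, a ratio of 5.20 (3.51 to 7.42). At least 1 of these UMIs was present in 21 of the 72 WT barcodes, where 5.46 barcodes were expected. In KO the list gave 9 UMIs in 6 of the 14 barcodes against 0.597 UMIs expected, a ratio of 15.1 (6.90 to 28.6). None of the list's genes reached 5 expected UMIs in either library, and 15 of the 22 WT genes had no UMI in the members. WNT3 was among them with 0.00124 expected, so its 0 says nothing of its level. CER1, the secreted inhibitor of NODAL and BMP ligands, supplied 12 of the 30 WT UMIs. NODAL supplied 6 more and the WNT target SP5 another 5. CER1 and NODAL are also counted in the NODAL pathway list below, and SP5 in the WNT list. CER1 and FOXA2 are also counted in the definitive endoderm list, so these lists are not separate readings. Without CER1 the list stood at 18 UMIs against 5.40 expected in WT (3.33, 1.98 to 5.27) and at 6 against 0.580 in KO (10.3, 3.79 to 22.5).

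CER1 had 12 UMIs in 7 WT barcodes against 0.369 expected, a ratio of 32.5 (16.8 to 56.7). The values per barcode were 4 in 1 barcode, 2 in 2 others and 1 in 4 others, and the barcode with 4 held 646 UMIs in all, with 1 UMI each of MIXL1, EOMES and LEFTY1. In KO, CER1 had 3 UMIs in 2 barcodes against 0.0162 expected. Counted at most once per barcode, CER1 in WT stood at 19.8 times the expected number (7.95 to 40.7).

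NODAL pathway genes were higher in the streak-marker barcodes, mainly through the ligand and its inhibitors in WT. The 25 pathway genes in the WT table gave 85 UMIs against 53.2 expected, a ratio of 1.60 (1.28 to 1.98), and 25 against 8.84 in KO (2.83, 1.83 to 4.17). Ligands and co-receptors stood at 24 UMIs against 11.6 in WT (2.06, 1.32 to 3.07) and 5 against 4.22 in KO. NODAL had 6 UMIs in 4 WT barcodes against 0.498 expected (12.1, 4.43 to 26.2) and 2 UMIs in KO against 0.0505. The co-receptor TDGF1, far more abundant, had 13 UMIs in WT against 10.3 (1.26, 0.670 to 2.15). Receptors, SMADs and FOXH1 gave 10 UMIs against 13.2 in WT (0.759, 0.364 to 1.40) and 9 against 2.37 in KO (3.80, 1.74 to 7.21). Inhibitors and targets gave 51 UMIs against 28.4 in WT (1.80, 1.34 to 2.36) and 11 against 2.26 in KO (4.88, 2.43 to 8.72).

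Among the inhibitors, LEFTY1, which blocks NODAL at its receptors, had 5 UMIs in 5 WT barcodes against 0.179 expected (27.9, 9.06 to 65.1) and 0 in KO. LEFTY1 and NODAL have too few UMIs for the rule that named genes, and were chosen after their values were seen. FST, the activin-binding follistatin, made up 27 of the 51 WT UMIs and stood at 1.19 times the expected 22.6 (0.787 to 1.74). Without CER1 the WT ratio of inhibitors and targets was 1.39 (0.990 to 1.90) and that of the whole pathway 1.38 (1.08 to 1.74). Only FST and TDGF1 of the pathway reached 5 expected UMIs in WT, and neither was 1.5-fold higher.

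WNT pathway genes as a list did not stand apart. The 49 genes in the WT table gave 159 UMIs against 157 expected (1.02, 0.864 to 1.19), and 38 against 30.7 in KO (1.24, 0.876 to 1.70). Ligands and their secretion factors gave 16 UMIs against 9.85 in WT (1.62, 0.928 to 2.64) and 0 against 0.449 in KO. Receptors and effectors gave 59 against 52.4 in WT (1.13, 0.857 to 1.45), with CTNNB1, which encodes beta-catenin, at 1.21 (0.644 to 2.07) and the repressor TCF7L1 at 1.39 (0.716 to 2.42). Of 8 WNT genes with at least 5 expected UMIs in WT, 0 were 1.5-fold higher and 1 was 1.5-fold lower, with a median ratio of 0.881. That gene was SFRP1, a secreted WNT antagonist, with 29 UMIs against 47.6 (0.609, 0.408 to 0.874) and 9 against 13.1 in KO.

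Some scarce inhibitors and targets in the WNT list had more UMIs than expected and others did not. DKK4, a secreted WNT inhibitor and target, had 8 UMIs in 6 WT barcodes against 0.268 expected (29.8, 12.9 to 58.7) and 6 UMIs in 3 KO barcodes against 0.0161. SP5, a zinc finger target of WNT, had 5 UMIs in 5 WT barcodes against 0.725 (6.90, 2.24 to 16.1) and 0 in KO. DKK1, another secreted inhibitor, had 2 UMIs against 0.134 in WT. AXIN2, a general target, had 1 UMI against 0.789 (1.27, 0.0321 to 7.07), and NKD1, a feedback inhibitor, had 2 against 1.09 (1.84, 0.223 to 6.65). LGR5, RNF43, NOTUM and TNFRSF19 had 0 UMIs in WT, with 0.524 expected for TNFRSF19 and fewer for the others. All of these genes were chosen after their values were seen.

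Pluripotency genes summed to about the level of barcodes of equal depth in KO and to that level or slightly below it in WT, with single genes on either side. The 31 genes gave 385 UMIs in WT members against 424 expected (0.907, 0.819 to 1.00) and 109 in KO against 107 (1.01, 0.833 to 1.22). At least 1 of these UMIs was present in 71 of the 72 WT barcodes, where 69.2 were expected. Against barcodes with no marker UMI, the 51 WT members with exactly 2 stood at 0.850 (0.738 to 0.973). The 21 with 3 or more stood at 0.982 (0.843 to 1.14). Without the 2 deepest WT members the ratio was 0.897 (0.806 to 0.997). Of 17 genes with at least 5 expected UMIs in WT, 1 was at least 1.5-fold higher and 2 were lower, with a median ratio of 0.832. The higher one was SALL4. The lower ones were OTX2, a homeobox factor of epiblast and anterior neural tissue, with 1 UMI against 5.69 expected (0.176, 0.00445 to 0.979), and PODXL, a surface sialomucin gene, with 8 against 14.9 (0.536, 0.231 to 1.06). OTX2 is outside the rule that named genes and was chosen after its value was seen. SOX2, a core pluripotency factor that is also a neural gene, had 15 UMIs against 22.1 (0.679, 0.380 to 1.12) in WT and 7 against 4.35 in KO. POU5F1, the core factor OCT4, had 6 against 3.11 (1.93, 0.708 to 4.20), and NANOG had 0 against 1.06, which allows up to 3.47 times the expected level. LIN28A, an RNA-binding protein of stem cells, had 36 UMIs against 51.4 (0.701, 0.491 to 0.970), SALL4 had 16 against 9.12 (1.76, 1.00 to 2.85), and the long non-coding RNA ESRG had 36 against 25.1 (1.43, 1.00 to 1.98). At this depth a moderate fall of SOX2, POU5F1 or NANOG was not detectable.

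**Figure D3:**
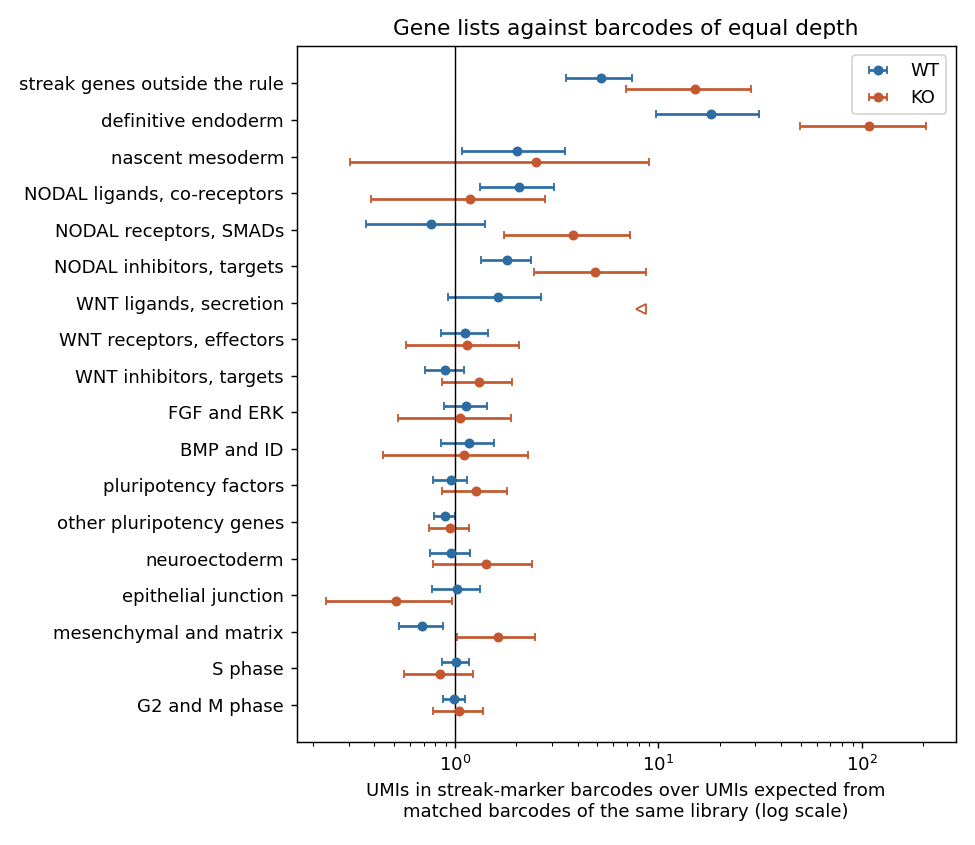
Ratio of UMIs in streak-marker barcodes to UMIs expected from remaining barcodes of equal depth (x axis, log scale) for 18 gene lists (y axis), WT in blue and KO in red. Bars are 95% exact Poisson intervals, and the open triangle gives the upper limit where 0 UMIs were seen. Streak genes outside the rule (5.20 in WT) and definitive endoderm genes (18.2 in WT) lie to the right of 1, and the pluripotency lists lie near it.

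Definitive endoderm genes stood high, but in WT almost entirely through CER1, which that list shares with the streak list. The list gave 13 UMIs against 0.713 expected in WT (18.2, 9.71 to 31.2). The only other UMI was 1 of GATA6, an endoderm transcription factor, in a barcode that held 3 UMIs of NODAL. In KO the list gave 9 UMIs in 7 of 14 barcodes against 0.0830 (108, 49.6 to 206), and 6 against 0.0668 without CER1 (89.8, 33.0 to 195). These 6 were 3 UMIs of FOXA2 in 3 barcodes, 2 of HHEX in 2 barcodes and 1 of GATA6. FOXA2 is in the streak list too, so the same 3 UMIs are among the 6 KO UMIs of that list without CER1. FOXA2, a forkhead factor of anterior streak and endoderm, had 0 UMIs in the 72 WT barcodes against 0.157 expected, and SOX17 had 0 in both libraries. The difference between WT and KO in these few UMIs was not tested.

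Of the remaining lists of cell type markers, only nascent mesoderm had a WT interval above 1. The germ cell and amnion lists had too few UMIs to show a rise of several-fold. Nascent mesoderm genes gave 13 UMIs against 6.42 in WT (2.02, 1.08 to 3.46) and 2 against 0.800 in KO. Germ cell precursor genes gave 1 against 1.11 in WT (0.901, 0.0228 to 5.02) and 0 in KO (upper limit 18.4), with 10 of 11 genes at 0 in WT. Amnion and trophoblast genes gave 1 against 1.25 in WT (0.801, 0.0203 to 4.46) and 0 in KO (upper limit 22.5). Fibroblast genes gave 21 against 21.9 in WT. Neuroectoderm genes gave 80 against 84.0 in WT (0.953, 0.755 to 1.19) and 14 against 9.82 in KO (1.43, 0.779 to 2.39). The neuroectoderm sum joined unlike genes. Of its 19 genes in the WT table, 11 had 0 UMIs, with 2.77 or fewer expected for each. Among them 2.77 were expected for STMN2, 1.56 for NR2F2, 1.53 for MEIS2, 1.38 for DACH1 and 1.36 for HESX1. Each 0 alone lies within counting error, but the 11 genes jointly lay below expectation, by an amount that was not tested. The neurofilament genes NEFL and NEFM had 12 UMIs against 3.08 and 19 against 13.4 in WT. CRABP1 had 30 against 36.4 in WT (0.825, 0.557 to 1.18) and 0 against 4.06 in KO (upper limit 0.909).

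Among genes that mark the passage from epithelium to mesenchyme, the mesenchymal list did not rise in sum in WT, but VIM dominated that sum. The mesenchymal and matrix list gave 66 UMIs against 96.4 in WT (0.685, 0.530 to 0.871). VIM, which encodes vimentin, had 42 of them against 69.6 (0.604, 0.435 to 0.816). Scarcer members lay on either side in WT. CDH2 had 3 UMIs against 6.2 and SPARC 7 against 9.44, while COL1A1 had 4 against 0.987 and FN1 3 against 1.05. SNAI1, SNAI2 and TWIST1 had 0 UMIs in WT with 0.306 or fewer expected for each, so their direction cannot be read. In KO the same list gave 22 against 13.5 (1.63, 1.02 to 2.46), but among KO members with at least 2 different marker genes it stood at 0.821. Epithelial junction genes gave 56 against 55.0 in WT (1.02, 0.770 to 1.32) and 9 against 17.6 in KO (0.510, 0.233 to 0.968), with 0.801 (0.322 to 1.65) in KO without its 2 deepest members. S phase genes stood at 1.01 (0.863 to 1.18) and G2 and M phase genes at 0.989 (0.875 to 1.11) in WT. Mitochondrially encoded genes stood at 1.04 in WT and at 0.716 (0.660 to 0.776) in KO, where the barcode with 10 marker UMIs had a mitochondrial share of 0.267%. FGF and ERK genes stood at 1.13 (0.878 to 1.43) and BMP and ID genes at 1.17 (0.854 to 1.56) in WT.

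Over all genes, the 12 that ranked highest in WT members with at least 10 UMIs were led by CER1. LINC00458, a long non-coding RNA gene at chr13:54124324-54132871, had 13 UMIs in 12 barcodes against 0.877 expected (14.8, 7.89 to 25.3) and 3 against 0.0384 in KO. LINC01356, a long non-coding RNA gene at chr1:112820169-112850643, had 11 against 0.944 (11.7, 5.82 to 20.9) and 2 against 0.165 in KO. GAL, which encodes the neuropeptide galanin, had 12 against 1.92 (6.25, 3.23 to 10.9) and 3 against 0.480 in KO. NEFL, a neurofilament gene, had 12 against 3.08 (3.90, 2.02 to 6.81) and 6 against 0.430 in KO. IFITM1, which encodes an interferon-induced membrane protein, had 48 UMIs in 21 barcodes against 13.5 (3.56, 2.63 to 4.73) and 14 against 2.72 in KO. Counted at most once per barcode, IFITM1 stood at 1.90 (1.18 to 2.91) in WT. The other 6 were PDLIM1, GSTO1, IVNS1ABP, ZNF581, IMP4 and ELP2, with WT ratios between 2.55 and 3.28. Of the 12, 9 were above the expected level in KO, and ZNF581, IMP4 and ELP2 had 0 UMIs there. The median KO ratio over the 447 genes with at least 5 expected UMIs was 0.965. Each of the 12 had 2.72 or fewer UMIs expected in KO, and the share of all genes above 1 at such counts was not calculated. The 12 were picked for their ratios in WT, so only the KO values are separate from the choice.

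The 12 genes that ranked lowest in WT were TARS1, MFGE8, PEG10, HIP1, VIM, PARP1, IGF2BP1, ZCCHC17, PTTG1IP, HNRNPU, EIF2S3 and CD24. Their ratios ran from 0.228 for TARS1, a threonyl-tRNA synthetase gene, to 0.690 for CD24, a surface glycoprotein gene. In KO, 7 of the 12 were above the expected level, where the median ratio of 447 genes with at least 5 expected UMIs was 0.965. Expected UMIs in KO ran from 1.85 for PEG10 to 24.4 for CD24, so for the scarcest genes 1 UMI can set the side. Whether the 12 share a direction in KO cannot be read from this count.

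The WT barcodes with exactly 1 marker UMI, which are not members, gave a separate reading of the same genes. In these 985 barcodes, compared with barcodes that held no marker UMI, CER1 had 16 UMIs against 4.14 expected (3.86, 2.21 to 6.27), NODAL 13 against 3.89 (3.34, 1.78 to 5.71) and LEFTY1 5 against 1.56 (3.20, 1.04 to 7.48). LINC00458 stood at 3.14 (2.05 to 4.60), LINC01356 at 2.13 (1.28 to 3.32), GAL at 2.01 (1.40 to 2.81), GSTO1 at 1.70 (1.33 to 2.15) and IFITM1 at 1.27 (1.08 to 1.49). The streak list outside the rule stood at 1.59 (1.27 to 1.98), the NODAL pathway at 1.14 (1.04 to 1.24), the WNT pathway at 0.903 (0.854 to 0.954) and pluripotency genes at 0.993 (0.961 to 1.03). Definitive endoderm genes gave 27 UMIs against 7.81 expected (3.46, 2.28 to 5.03), where CER1 gave 16 against 4.14. Amnion and trophoblast genes gave 19 against 11.3 (1.69, 1.02 to 2.63), and germ cell precursor genes 9 against 9.62 (0.936, 0.428 to 1.78). Nascent mesoderm genes stood at 1.18 (0.918 to 1.49) and neuroectoderm genes at 0.975 (0.906 to 1.05). FST made up 269 of the 543 NODAL pathway UMIs, against 201 of the 477 expected (1.34, 1.18 to 1.51), so the pathway value there rests largely on FST, whose ratio in members was 1.19. The other 6 of the highest 12 had intervals that included 1, with NEFL at 1.27 (0.883 to 1.78), IVNS1ABP at 1.17 (0.954 to 1.41), ZNF581 at 1.05, PDLIM1 at 1.03, ELP2 at 0.894 and IMP4 at 0.842. The 12 lowest genes lay between 0.893 and 1.14 in these barcodes.

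**Figure D4:**
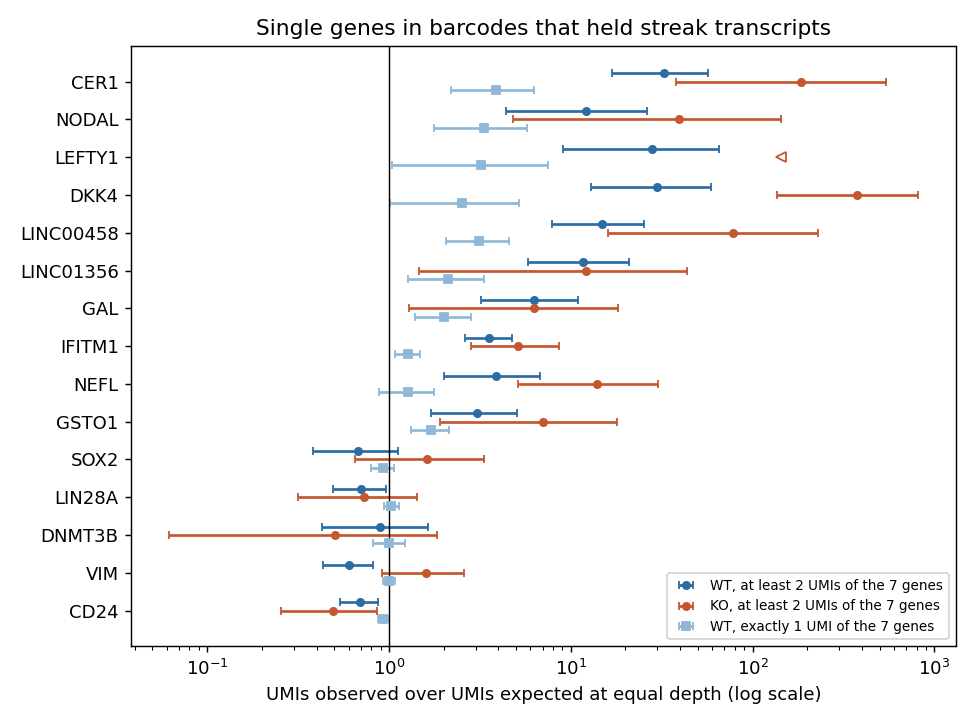
Ratio of observed to expected UMIs at equal depth (x axis, log scale) for 15 genes (y axis) in WT members (dark blue), KO members (red) and WT barcodes with exactly 1 marker UMI (light blue squares). Bars are 95% exact Poisson intervals, and the open triangle is the upper limit for LEFTY1 in KO, where 0 UMIs were seen. CER1 stood at 32.5 in WT members and at 3.86 in the barcodes with 1 marker UMI.

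Single barcodes joined several of these genes. The WT barcode with the most UMIs of NODAL held 3 of them, with 2 each of MIXL1 and EOMES and 1 of GATA6, among 1803 UMIs. A WT barcode of 758 UMIs held 2 of MIXL1, 2 of CER1 and 1 of NODAL. The KO barcode with 10 marker UMIs had 1 of TBXT, 4 of MIXL1, 3 of EOMES and 2 of GSC among 3371 UMIs, and it also held 1 UMI each of FOXA2, SOX2 and NANOG. A KO barcode of 1339 UMIs held 1 each of MIXL1, EOMES and GSC, with 2 of CER1 and 1 of NODAL.

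Streak-marker barcodes were a larger share of WT than of KO barcodes, by 4.55-fold (2.54 to 8.73), and barcodes with at least 1 marker UMI by 3.57-fold, at 1.77% against 0.497% (interval of the ratio 3.11 to 4.10). When each barcode was thinned to 250 UMIs, 1.01% of WT and 0.304% of KO barcodes held at least 1 marker UMI (3.31, 2.78 to 3.97). After thinning, 13 of 59649 WT and 6 of 52716 KO barcodes held at least 2, a ratio of shares of 1.91 (0.679 to 6.14). Averaged exactly over all such thinnings, 16.4 WT and 4.33 KO barcodes did, a ratio of shares of 3.34. The marker genes stood at 21.4 CPM for MIXL1 and 14.8 CPM for EOMES over kept WT barcodes, against 6.02 and 4.35 CPM in KO, and all 7 genes were lower in KO. With 1 library per genotype, fewer cells with these transcripts, fewer transcripts per cell and a difference between the libraries cannot be told apart.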

How the data were processed

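Single-cell RNA was measured in 1 WT and 1 ZNF263 KO library of H1 cells. The deposited values are raw UMI counts, 1 whole number for each gene in each barcode, not normalized. Tools listed in the submitters' processing notes, in no stated order, are STAR 2.7.10a, UMI-tools 1.1.2, Subread and featureCounts 2.0.1, with genome build hg38. Which annotation was used, and whether barcodes were filtered, is not given in the sources used here. All entries of the KO table were used, including 15 beyond the number its header declares. Barcodes with at least 250 UMIs were kept, so most values rest on few UMIs per barcode, and doublets were not called.

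The expected number of members is the sum over barcodes of the binomial chance of at least 2 UMIs at the pooled share of the 7 genes in that library. Expected UMIs of other genes come from the remaining barcodes in bins of UMIs per barcode (width 1.2-fold), with the 7 genes left out of the denominator. Thinning used 1 random draw. Alternatives are in the closing section. Functions were tested on simulated counts.

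Named genes were the 7 markers; ZNF263, POU5F1, NANOG and SOX2; up to 4 genes per list in either direction with at least 10 UMIs observed or expected; and the 12 highest and 12 lowest WT genes ordered by the interval bound nearest 1. Genes outside this rule are said to be so, or illustrate a list or a barcode, and were chosen after their values were seen. The members, lists and tests were chosen with earlier results of these data known. Python 3.11.15, NumPy 2.4.6, SciPy 1.17.1, pandas 2.3.3 and Matplotlib 3.10.9 were used.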

Additional observations from a re-analysis of the deposited data

How the results depend on the processing

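The alternatives covered the UMI minimum, the mitochondrial limit, the marker threshold, thinning, deep and shared barcodes, the profile behind the expected number, the matching variable and the genes in the denominator. Counting each gene once per barcode and leaving out the 2 deepest members of each library were chosen after seeing the data. Of 79 values of the main comparisons, 70 stayed within the interval of the reported value, 8 moved outside it and 1 changed direction. With a minimum of 1000 UMIs the WT streak list outside the rule stood at 3.09 and the KO number of members at 6.15 times the expected. With at least 3 marker UMIs the number was 67.5 times the expected in WT and 691 times in KO, because far fewer are expected. Thinned to 250 UMIs, 13 WT barcodes qualified: the streak list stood at 3.14 on 1 UMI, the NODAL pathway changed direction to 0.365 on 1 UMI and the WNT pathway stood at 0.741. The definitive endoderm list and the NODAL inhibitors and targets both had 0 UMIs there. The KO number of members then stood at 23.1 times the expected, and the ratio of WT to KO shares at 1.91. The mesenchymal list in KO changed direction to 0.821 with at least 2 different marker genes and to 0.688 after thinning. Without the 2 deepest members the KO endoderm list moved to 228 times the expected. For the remaining lists 189 of 216 values in WT and 249 of 264 in KO stayed within the interval of the reported value, and for named genes in WT 400 of 405. No paired analysis was possible because the labels carry no replicate numbers and each genotype has 1 library.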

Other observations

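Some scarce genes not named above were also higher in the streak-marker barcodes, and all were chosen after their values were seen. FGF4, a fibroblast growth factor of stem cells and the early streak, had 5 UMIs in 3 WT barcodes against 0.0939 expected at equal depth (53.3, interval 17.3 to 124) and 1 UMI in KO against 0.0137. FGF17, of the same family, had 3 UMIs in 3 WT barcodes against 0.0418 (71.8, 14.8 to 210) and 0 in KO against 0.00286. FGF4 and FGF17 are counted in the FGF and ERK list above. The 3 WT UMIs of FGF17 are also among the 30 of the streak list outside the rule. SERPINB9, which encodes a granzyme B inhibitor, had 8 UMIs in 7 WT barcodes against 0.967 (8.28, 3.57 to 16.3) and 6 UMIs in 3 KO barcodes against 0.328 (18.3, 6.70 to 39.8). CST1, a cystatin gene, had 4 UMIs in 2 WT barcodes against 0.143 (27.9, 7.60 to 71.4) and 0 in KO, and DACT1, which encodes a regulator of WNT signalling, had 5 UMIs in 4 WT barcodes against 0.354 (14.1, 4.58 to 32.9) and 0 in KO.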
